A study of Drosophila melanogaster with 2 samples.

Results

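NFAT-eGFP peaks that lay in introns close to, but outside, a promoter were examined in embryos of Drosophila melanogaster. A peak was counted here if its summit, the base of strongest signal, lay inside a protein-coding gene, in no annotated exon, and more than 500 and at most 2000 bp from the nearest transcription start site (TSS) of a protein-coding gene. Of the 4899 summits on the chromosome arms, 572 met this rule (11.7%, 95% Wilson interval 10.8 to 12.6%). The rule used position only and no measured value. The study was a chromatin immunoprecipitation and sequencing (ChIP-seq) experiment on whole embryos 0 to 24 h old, from transgenic flies of the strain NFAT-GFP, which carry an insertion for a fusion of NFAT to enhanced green fluorescent protein (eGFP). The immunoprecipitation used an antibody against GFP, as the sample description gives it, while the antibody field of the labels names NFAT. There were 2 biological replicates of this 1 group, and no control immunoprecipitation was used here, so nothing below compares conditions. The embryos span all of embryogenesis and all cell types, and the cells in which a site was bound cannot be told apart.

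NFAT proteins are transcription factors with a Rel-homology DNA-binding domain, and the fly gene is most like the vertebrate NFAT5, which responds to osmotic stress. The core that NFAT proteins recognise is GGAAA. The first introns of fly genes often hold enhancers and alternative promoters, and an intronic site close to a TSS may lie downstream of the promoter of its gene or upstream of a second promoter of the same gene.

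The sequences at some of the strongest of these summits are shown first, because the hexamer CACTGT was, of all hexamers, the one most in excess at the summits over their flanks, and its direction relative to the summit was uneven. All are from the Release 6 (dm6) genome sequence of RefSeq, plus strand, 5' to 3', with CACTGT or its reverse complement ACAGTG in capitals. The first 6 are the strongest members with the hexamer within 140 bp of the summit, leaving out 1 chromosome arm that is not printed. Each runs over 281 bp with the summit at base 141. They lie at chrX:13640374-13640654 in NFAT itself, chrX:4324858-4325138 in norpA (the phospholipase C of phototransduction), chr3L:14759346-14759626 in Trl (the GAGA factor), chr3R:11649511-11649791 in Csk (C-terminal Src kinase), chr3L:18640571-18640851 in MYPT-75D (a regulatory subunit of myosin phosphatase) and chr3R:11656664-11656944 in CG42327. A further 2 are among the strongest members with the hexamer within 50 bp of the summit, each shown with 50 bp on either side of it (summit at base 51), at chrX:5083744-5083844 in CG32767 and chr3L:16660597-16660697 in Baldspot (a fatty acid elongase).
NFAT: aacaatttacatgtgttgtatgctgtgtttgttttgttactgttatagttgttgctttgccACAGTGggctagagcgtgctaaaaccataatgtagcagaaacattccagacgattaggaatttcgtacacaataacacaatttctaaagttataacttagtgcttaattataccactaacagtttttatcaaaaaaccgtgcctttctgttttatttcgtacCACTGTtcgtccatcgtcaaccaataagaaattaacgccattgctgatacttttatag
norpA: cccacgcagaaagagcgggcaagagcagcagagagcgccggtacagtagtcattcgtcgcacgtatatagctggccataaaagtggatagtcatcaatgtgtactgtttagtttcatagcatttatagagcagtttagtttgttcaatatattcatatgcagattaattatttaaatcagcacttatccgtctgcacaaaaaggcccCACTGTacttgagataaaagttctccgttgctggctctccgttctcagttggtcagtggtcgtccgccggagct
Trl: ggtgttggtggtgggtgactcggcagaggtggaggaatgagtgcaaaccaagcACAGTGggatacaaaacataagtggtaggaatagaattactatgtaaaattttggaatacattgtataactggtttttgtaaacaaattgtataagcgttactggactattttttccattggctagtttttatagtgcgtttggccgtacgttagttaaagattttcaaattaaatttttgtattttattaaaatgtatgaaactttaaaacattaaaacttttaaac
Csk: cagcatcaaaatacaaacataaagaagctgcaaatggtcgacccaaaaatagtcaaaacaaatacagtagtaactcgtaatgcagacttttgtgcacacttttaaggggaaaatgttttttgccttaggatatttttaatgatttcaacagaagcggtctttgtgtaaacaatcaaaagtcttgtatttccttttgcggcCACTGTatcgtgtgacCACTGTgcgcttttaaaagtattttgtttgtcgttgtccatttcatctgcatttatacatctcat
MYPT-75D: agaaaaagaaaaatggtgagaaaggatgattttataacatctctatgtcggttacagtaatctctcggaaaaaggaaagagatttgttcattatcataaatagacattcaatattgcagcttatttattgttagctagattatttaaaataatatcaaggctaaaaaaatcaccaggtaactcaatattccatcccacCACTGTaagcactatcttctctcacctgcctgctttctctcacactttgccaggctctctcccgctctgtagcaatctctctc
CG42327: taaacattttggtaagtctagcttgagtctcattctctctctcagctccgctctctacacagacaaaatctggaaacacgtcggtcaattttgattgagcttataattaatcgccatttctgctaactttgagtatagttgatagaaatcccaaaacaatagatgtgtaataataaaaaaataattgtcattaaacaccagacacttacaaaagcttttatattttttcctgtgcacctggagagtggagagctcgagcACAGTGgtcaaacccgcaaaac
CG32767: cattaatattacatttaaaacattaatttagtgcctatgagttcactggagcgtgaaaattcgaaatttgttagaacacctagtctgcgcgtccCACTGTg
Baldspot: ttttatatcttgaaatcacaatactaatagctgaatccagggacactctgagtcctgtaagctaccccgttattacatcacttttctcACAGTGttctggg

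In the NFAT window ACAGTG stood before the summit and CACTGT after it, so that both hexamers read away from the summit. The windows of norpA, Csk and MYPT-75D held CACTGT after the summit, with 2 copies in Csk, and that of Trl held ACAGTG before it. The window of CG42327 had the opposite arrangement, with ACAGTG after the summit. Of the shorter windows, that of CG32767 held CACTGT after the summit, and that of Baldspot held ACAGTG after it. The last 2 sequences show elements known from insulators and housekeeping promoters, with the element in capitals. They are the strongest member with the CTCF-like core AGGTGGCGC, in CG43693 at chr3L:11048044-11048144, and the only member with the whole DNA replication-related element (DRE, TATCGATA), in Stt3A (a subunit of oligosaccharyltransferase) at chrX:21053238-21053338.
CG43693: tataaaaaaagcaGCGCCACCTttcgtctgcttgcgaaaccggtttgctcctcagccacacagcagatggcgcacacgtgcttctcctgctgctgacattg
Stt3A: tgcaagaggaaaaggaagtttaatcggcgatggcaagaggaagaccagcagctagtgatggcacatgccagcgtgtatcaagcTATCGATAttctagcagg

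The 572 peaks were denser than intronic peaks farther away. Intron sequence within these limits made up 9.94 Mb, or 7.22% of the arms, and held 57.6 summits per Mb (95% Poisson interval 52.9 to 62.5). Introns over 2000 bp from a TSS held 17.7 per Mb (16.4 to 19.1, 700 summits), promoters, here within 500 bp of a protein-coding TSS, 179 per Mb (173 to 186), and the arms as a whole 35.6 per Mb. Within the limits, density fell with distance. It was 84.4 per Mb between 500 and 750 bp (72.1 to 98.3), 62.2 up to 1000 bp, 54.6 up to 1250 bp, 49.5 up to 1500 bp, 42.4 up to 1750 bp and 41.4 up to 2000 bp (31.3 to 53.8). The lowest of these intervals lay above that of the more distant introns. Intervals cover counting error only, and no test was made over regions. The median distance to the TSS was 1008 bp (interval 967 to 1083). Of 127425 peaks in the longer ranked list without a thresholded counterpart, 8583 (6.74%, 6.60 to 6.88%) met the same rule, against 7.22% of the sequence. With replicate 1's shorter thresholded list alone, without replicate 2, near-TSS introns held 25.7 summits per Mb, and the share of summits in them was 11.4%.

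**Figure D1:**
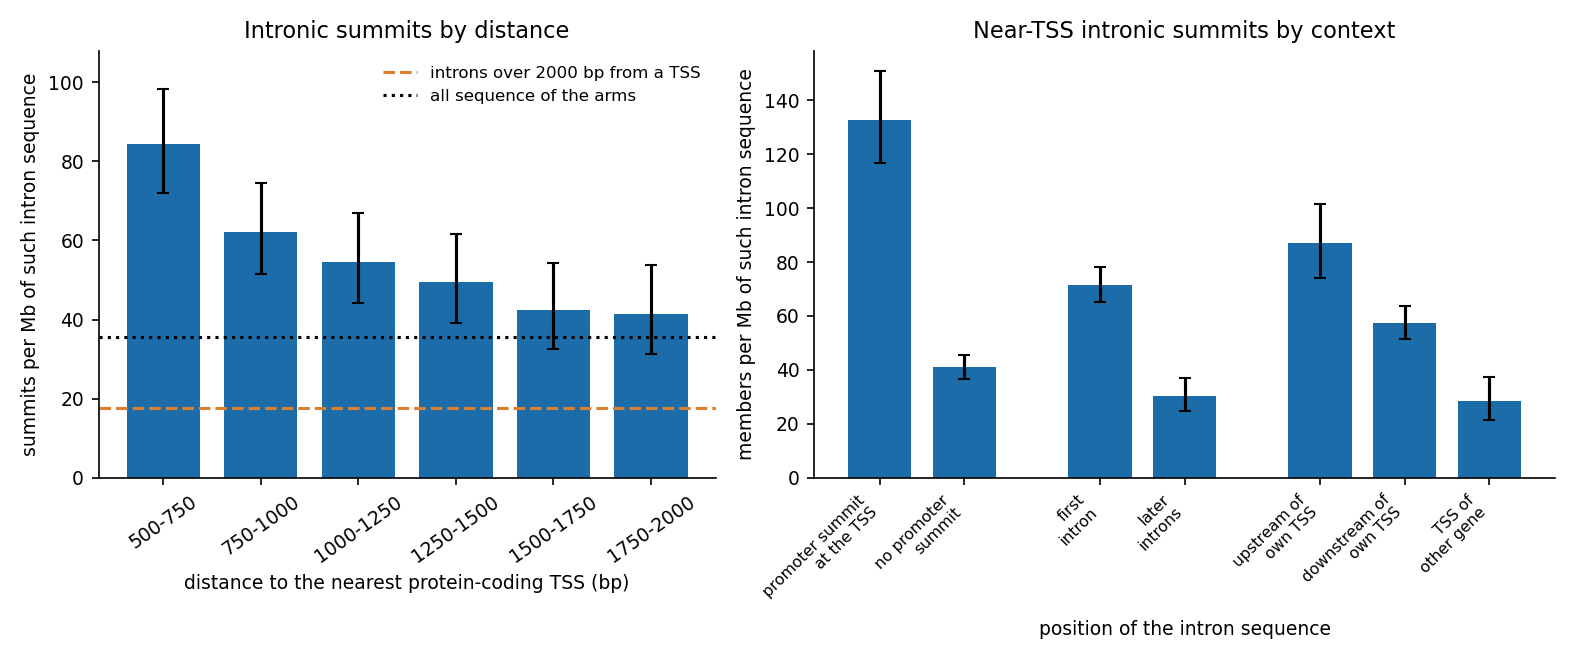
Summits per Mb of eligible intron sequence by distance from the nearest protein-coding TSS in bins of 250 bp (left) and by context for the 572 near-TSS intronic summits (right), with 95% Poisson intervals. Density fell with distance from 84.4 to 41.4 per Mb and was highest, at 132.9 per Mb, near TSSs with a promoter summit.

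Density also differed with context. Intron sequence whose nearest TSS also had a promoter summit held 239 members in 1.80 Mb, or 132.9 per Mb (116.6 to 150.9), against 40.9 per Mb (36.6 to 45.6) where it had none, with 333 members in 8.14 Mb. The share of members with such a promoter summit, 41.8%, was 19.2% when replicate 1's thresholded list was used alone, without replicate 2. Along the gene, 354 members (61.9%) lay downstream of a TSS of their own gene, at 57.4 per Mb (51.6 to 63.7). A further 164 (28.7%) lay upstream of an alternative TSS of their own gene, at 87.1 per Mb (74.2 to 101.5). For the other 54 the nearest TSS belonged to another gene (28.6 per Mb, 21.5 to 37.3). First introns of at least 1 annotated transcript held 471 members (82.3%, 79.0 to 85.3%) at 71.3 per Mb (65.0 to 78.1), and later introns the other 17.7% at 30.3 per Mb (24.7 to 36.8). Introns farther from a TSS had 59.3% of summits in first introns (55.6 to 62.9%) and 15.1% upstream of an alternative TSS of their own gene (12.7 to 18.0%). Of the near-TSS intron sequence itself, 66.45% lay in first introns and 18.96% upstream of an alternative TSS of its gene. These sequence shares are not given for introns farther from a TSS, so no difference between the classes is read from the shares of summits. The introns that held the members had a median length of 4218 bp, against 12978 bp for those that held the summits farther from a TSS. Within 100 bp of a splice site lay 25 members (4.37%), against 7 of the 700 summits farther away (1.00%). The share of sequence that close to a splice site is not given for either class, so no difference is read from these counts.

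Members often had other peaks close by. In 207 of 572 (36.2%, 32.4 to 40.2%) another summit lay within 1000 bp, against 26.0% of all summits and 21.1% of those in introns farther from a TSS (18.3 to 24.3%). The rule fixes part of this contrast. A summit over 2000 bp from a TSS cannot have a promoter summit within 1000 bp, while a member can. Where the nearest TSS had a promoter peak, the intronic peak was stronger than it in 106 of 239 cases (44.4%, 38.2 to 50.7%), and the median ratio of their signals was 0.895 (0.776 to 1.07). Across the 239 pairs, Spearman's rho of the signals was -0.03, a description across peaks of 1 list. Introns farther from a TSS were close to this, with 72 of 183 cases (39.3%, 32.6 to 46.6%), a median ratio of 0.889 and a rho of -0.06. At the limits of the rule, the members just inside 500 bp were at myd (501 bp, signal 52.9), ph-p (502 bp, 1319) and aru (507 bp, 429), and the intronic summits just outside at shep (500 bp, 146.5), kuk (499 bp, 190.4) and CG31612 (498 bp, 357). Just inside 2000 bp were hiw (1994 bp, 57.9), snu (1993 bp, 102.7) and RhoGAP18B (1990 bp, 123), and just outside Galphao (2010 bp, 56.9), RhoL (2012 bp, 78.9) and CG43658 (2012 bp, 76.4).

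The replicates are set side by side next. Signal, the deposited strength value of each peak, has no stated scale, and without read totals the depth is unknown. Of the 572 members, 249 (43.5%) overlapped a thresholded peak of replicate 1, against 44.2% of all summits, and 417 (72.9%) one of replicate 2, against 73.3%. Thresholded peaks of both replicates overlapped 229 members (40.0%, 36.1 to 44.1%), against 39.8% of all summits, 45.3% at promoters and 30.7% in introns farther from a TSS (27.4 to 34.2%). No thresholded peak of either replicate overlapped 135 (23.6%), against 22.3%. The conservative list overlapped 444 (77.6%, 74.0 to 80.9%), against 74.7%. These shares were near those of the whole list. The series-level list was made from both replicates, so its overlap with them is not independent. In the longer ranked lists 536 members (93.7%, against 94.5%) were matched in both replicates, with summits a median of 20 bp apart. Their median signal was 38.8 in replicate 1 and 57.9 in replicate 2, and 465 of 536 (86.8%) were higher in replicate 2, with a median ratio of replicate 2 over replicate 1 of 1.49. Over all summits in both ranked lists 4050 of 4628 (87.5%) were higher in replicate 2, with a ratio of 1.53, so the members were close to the whole list in this. Spearman's rho between replicates was 0.709 and Pearson's r of log10 signals 0.811 across the 536 peaks, which come from 1 pair of libraries.

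**Figure D2:**
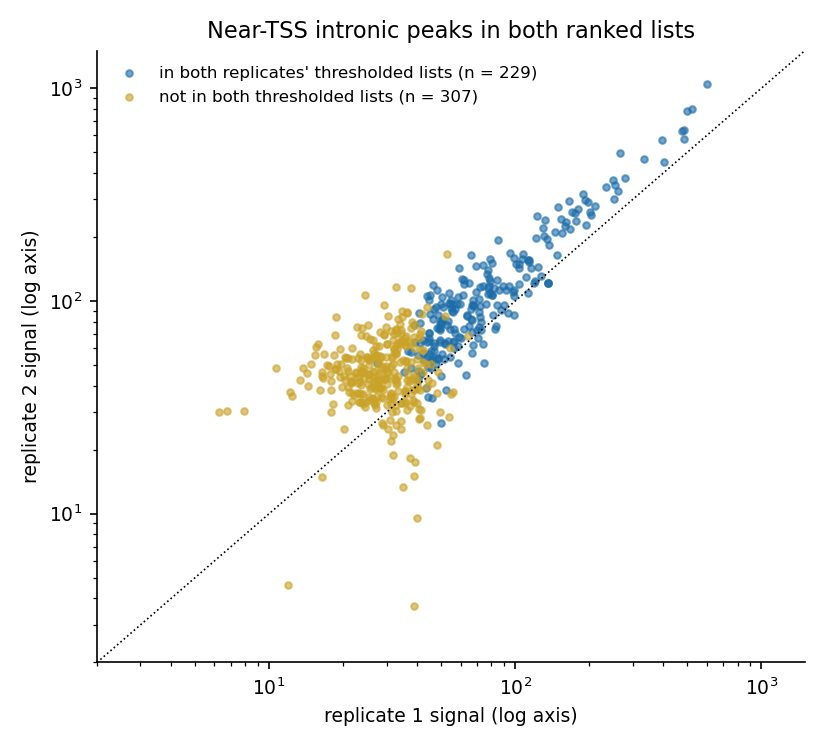
Signal of each near-TSS intronic peak in replicate 1 (horizontal) and replicate 2 (vertical), both on log axes, for the 536 peaks in both ranked lists. The dotted line marks equal signal, and 465 peaks lay above it.

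Signal varied over a wide range. The members had a median signal of 91.0 (interval 87.2 to 96.3), with the middle 50% between 69.7 and 141, against a median of 102 at promoters (100.2 to 105), 80.7 in introns farther from a TSS (77.9 to 84.4) and 91.8 over all summits. A signal of 300 or more was reached by 43 members (7.52%), against 5.80% of all summits. At promoters 188 of 2753 summits reached it (6.83%), and in introns farther away 15 of 700 (2.14%). Members made up 7 of the 25 strongest peaks of the list and 20 of the 100 strongest, against 11.7% of all summits. Promoter peaks made up 16 of the same 25 and 63 of the same 100. At the other end 12 members had a signal under 20 (2.626 to 19.02), against 1.35% of all summits. Of these 12, 11 had another summit within 250 bp, as did 64 of the 66 summits of such signal in the whole list. The exception among the members was at heca, 9140 bp from the next summit.

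The strongest members were reached in both replicates. The peak in CG11050 (2L, 6612529 to 6612958) had a signal of 599 in replicate 1, 1049 in replicate 2 and 1669 in the series-level list, 1041 bp from the TSS. Its summit lay in an annotated intron of 140 bp, the shortest among the 25 strongest members, and 53 bp from a splice site. The peak itself was wider than this intron. At ph-p (polyhomeotic proximal, a Polycomb group gene) the signals were 521 and 802 in replicates 1 and 2, and the series-level signal was 1319. The peak lay 502 bp upstream of an alternative TSS of ph-p whose own promoter peak had a signal of 67.0. CG9663, which encodes an ABC transporter, had 487 and 638 (series level 1125), and CG32772 had 478 and 633 (1107). Adf1, a DNA-binding factor with a MADF domain, had 484 and 575 (1037), with a promoter peak of 106. CG3726 had 394 and 569 (968). Every one of the 25 strongest members was higher in replicate 2 and overlapped thresholded peaks of both replicates and of the conservative list. The same held for nearly all summits of that strength. Of the 125 summits in the whole list with at least the signal of the weakest of the 25, 124 overlapped thresholded peaks of both replicates and 124 the conservative list, and all 124 in both ranked lists were higher in replicate 2. Of the 25, 15 had a promoter peak at their nearest TSS, and all 15 were stronger than it, which the choice of the strongest members largely fixed. First introns held 22 of them.

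**Figure D3:**
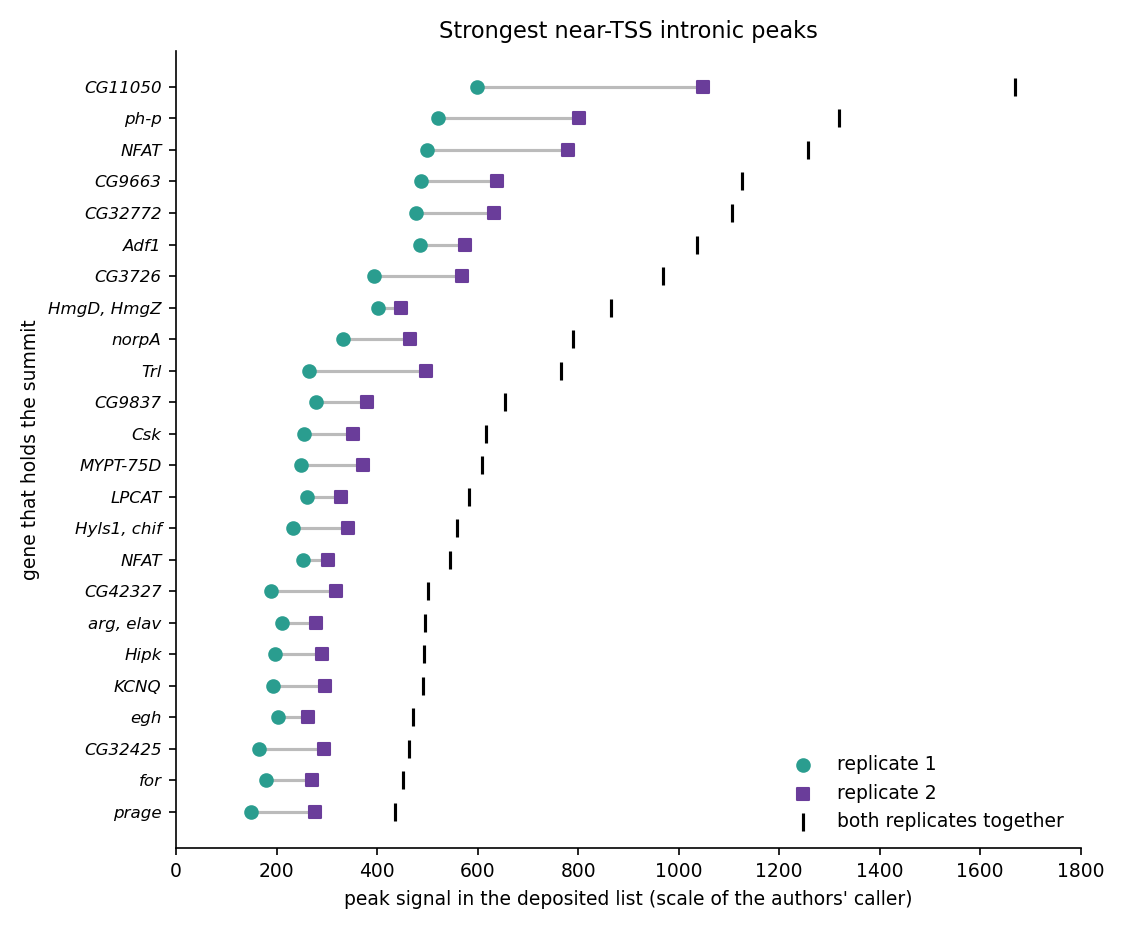
Signal of 24 of the 25 strongest near-TSS intronic peaks in replicate 1 (circles), replicate 2 (squares) and the series-level list (ticks), by the gene that holds the summit. All 24 were higher in replicate 2, and replicate 1 signals ran from 148.9 to 599.3.

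The peak shared by HmgD and HmgZ, which encode DNA-bending proteins with an HMG box, had 402 in replicate 1 and 448 in replicate 2 (series level 866), and lay 551 bp from a TSS of HmgZ. At norpA the signals were 332 and 465 (790.0), and at Trl 265 and 498 (765). CG9837 had 278 and 379 (655), Csk 254 and 352 (617) and MYPT-75D 248 and 371 (609). LPCAT, a lysophospholipid acyltransferase, had 261 and 328 (582), and the region shared by chif, the fly relative of the replication kinase activator Dbf4, and Hyls1 had 233.5 and 343 (559). The peak in elav, the neuronal RNA-binding protein gene that overlaps arg (arginase), reached 211 and 279 (495). It had the strongest promoter peak of the 15, with 412. Hipk, a nuclear protein kinase, had 197 and 291 (493), and a peak inside KCNQ, a voltage-gated potassium channel gene, had 192 and 297 (491) and lay nearest to the TSS of mlt. Others among the 25, with series-level signals from 436 to 502, were at CG42327, egh (a glycosyltransferase), CG32425, for (a cGMP-dependent protein kinase) and prage.

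Of 13968 protein-coding genes, 496 held a member (3.55%), or 5.47% of the 9072 genes that contain eligible intron sequence. Most, 413, held 1 member, while 60 held 2, 13 held 3, 7 held 4 and 3 held 5. NFAT was among the 3 with 5. Its members had series-level signals of 1257, 544, 278, 182 and 101.2. In replicate 1 the first 3 had 499.5, 251.5 and 114, and in replicate 2 779, 302 and 152. The member with 182 had 114 in replicate 2 and no overlapping ranked peak in replicate 1, and the member with 101.2 had 29.9 and 75.4. The strongest lay at X, 13640371 to 13640652, in an intron of 23787 bp, upstream of an alternative TSS of NFAT whose promoter peak had a signal of 99.3. The transgenic strain carries an insertion for NFAT, and whether extra copies of the locus contribute to these signals was not tested. CG42258 also held 5, with signals of 275, 117, 105, 67.2 and 3.14, and CG1677 5, with 140, 112, 79.4, 79.0 and 8.81. CG9837 held 4 (655, 107, 88.7 and 76.2), as did the forkhead factor gene CHES-1-like (274, 103, 90.3 and 87.2). The weakest members of CG42258 and CG1677 lay 202 and 199 bp from a stronger one.

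Gene lists chosen for embryonic regulation are described by counts alone, to be read against the 5.47% of genes with eligible sequence. Of the chromatin and insulator genes with such sequence, 6 of 32 held a member (18.8%, Wilson interval 8.89 to 35.3%). They were led by ph-p, Adf1 and Trl, followed by crol (signal 89.9). Among stress and immune transcription factors 5 of 17 did (29.4%, 13.3 to 53.1%). These were kay, the fly Fos (signal 142, with 50.7 in replicate 1 and 94.0 in replicate 2), sima, the HIF-alpha gene (139), cnc, the Nrf relative (92.5), and the Rel factor gene Dif (76.6), besides 1 further gene. Notch, Wnt, Hedgehog, TGF-beta and EGFR signalling had 6 of 41 (14.6%, 6.88 to 28.4%), with neur (a ubiquitin ligase of the Notch pathway, 184), Mad (the SMAD of Dpp signalling, 156), Egfr (124) and sgg (the GSK3 kinase, 86.1) on top. Insulin, TOR and growth control had 4 of 27 (14.8%, 5.92 to 32.5%): the Myc antagonist Mnt (141), the insulin receptor InR (140.5), Akt (110) and yki (64.0). Developmental transcription factors had 6 of 52 (11.5%, 5.40 to 23.0%), led by CHES-1-like, the Hox gene Abd-B (126), br (125) and EcR, the ecdysone receptor (65.0). Genes of actin, tubulin and cell shape had 4 of 26 (15.4%, 6.15 to 33.5%), with the dynein heavy chain gene Dhc64C (363, with 145 and 210 in replicates 1 and 2), the cofilin gene tsr (247), the formin gene dia (154) and RhoGEF2 (64.1). Neuronal adhesion and guidance genes had 3 of 34 (8.82%, 3.05 to 23.0%), at Ptp10D (170), NetB (102) and fra (70.7). Of the 17 genes for calcium and NFAT signalling with such sequence, 2 held a member, NFAT and norpA (11.8%, 3.29 to 34.3%). Each named gene holds the summit, but for br, EcR, Egfr, yki, NetB and fra the nearest TSS belonged to another gene. Genes of these lists can hold more eligible intron sequence than others, which was not adjusted for, so nothing particular to a list is read from its share.

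Summit sequence, 50 bp either side, was compared with flanks of the same length centred 400 bp away, for 18 motifs searched on both strands. Each summit had 1 flank, on a side set by the odd or even rank of its peak. Flanks were not kept to introns or away from promoters and other summits. The 5-base core CACTG was at 164 of 572 summits (28.7%, 25.1 to 32.5%) and 98 flanks (17.1%), a difference of 11.5 points (95% interval 6.64 to 16.4), against 30.0% of all summits. TATAAA, the TATA box, was at 89 summits (15.6%) and 64 flanks (11.2%), a difference of 4.37 points (0.41 to 8.34). Of all summits 11.6% had it, and of those in introns farther from a TSS 13.0%. Among members its share was 21.0% in the strongest 143 and 6.99% in the weakest 143. The NFAT core GGAAA was at 144 summits (25.2%, against 26.4% of all summits) and 169 flanks (29.5%), a difference of -4.37 points (-9.52 to 0.78). The longer form TGGAAA, which contains it, was at 62 summits and 67 flanks. GAGAG, bound by the GAGA factor, was at 83 summits (14.5%, against 14.1%) and 17.7% of flanks, a difference of -3.15 points (-7.45 to 1.15). CGATA, the core of the DRE, was at 67 summits (11.7%, against 20.7% of all summits) and 58 flanks, a difference of 1.57 points (-1.97 to 5.12). Promoter summits held CGATA in 28.3% of cases, so that members were lower by 16.5 points (members minus promoters -16.5, -19.5 to -13.2), and the whole DRE was at 1 member (0.175%) against 5.59% at promoters. In introns farther from a TSS CGATA was at 11.0% and CACTG at 25.6%. A match is only a match of letters.

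**Figure D4:**
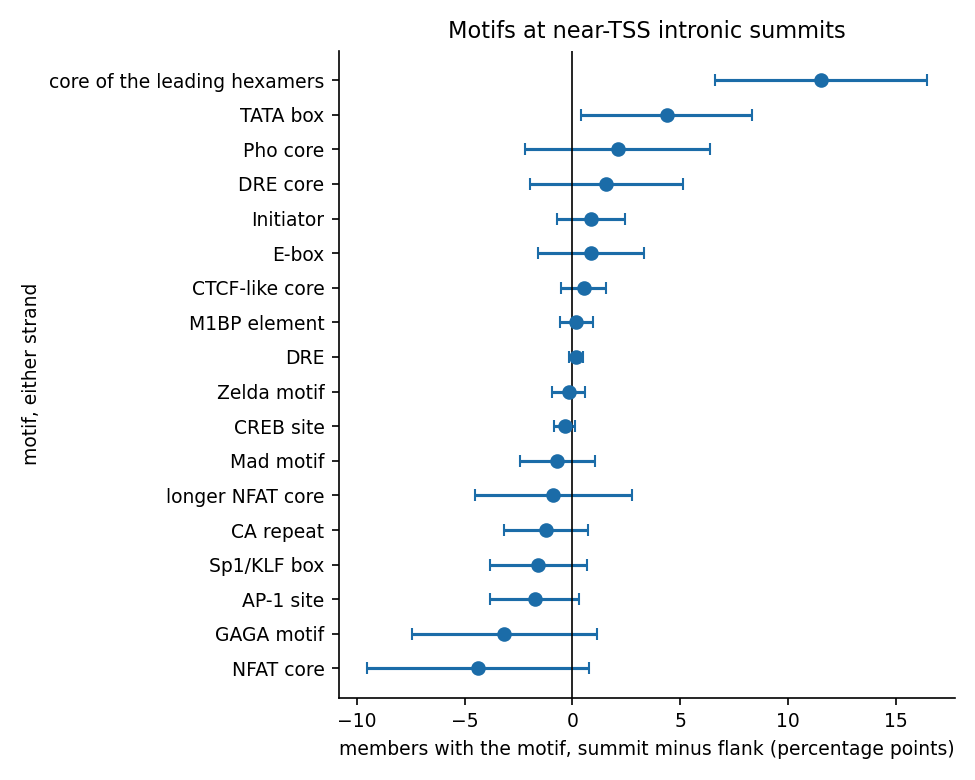
Difference between the share of the 572 near-TSS intronic summits with each of 18 motifs and the share of their flanks, in percentage points, with 95% intervals. The core of the leading hexamers was highest, at 11.5 points, and the NFAT core lowest, at -4.37.

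Among all 2080 hexamers CACTGT had the largest difference. It was at 83 of 572 summits (14.5%, 11.9 to 17.6%) and 29 flanks (5.07%, 3.55 to 7.19%), a difference of 9.44 points (6.10 to 12.8), against 11.1% of all summits. The hexamer was picked as the top of this ranking, so its difference at the summits is a description. It contains the 5-base core. Members of replicate 1's own thresholded list had it at 33 of 255 summits (12.9%) and 20 flanks (7.84%), and those of replicate 2 at 64 of 469 (13.6%) and 23 flanks (4.90%). The difference was 5.10 points in replicate 1 (-0.25 to 10.4) and 8.74 in replicate 2 (5.02 to 12.5).

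The direction of the hexamer relative to the summit, which the choice of the hexamer did not use, was uneven. Within 150 bp of the summit, 177 members (30.9%, 27.3 to 34.9%) had 231 copies, against 24.8% of all summits with a copy. In 167 of the 231 copies (72.3%, 66.2 to 77.7%) the summit lay on the 5' side of CACTGT, that is, the hexamer read away from the summit, and in 64 on the 3' side. Between 200 and 500 bp from the summits 73 of 155 copies (47.1%, 39.4 to 54.9%) had that direction. Copies with the summit on their 5' side were most frequent between 25 and 75 bp, with 7.17 per 100 members in each of these bins of 25 bp, and their median distance was 62.5 bp. With the summit on the 3' side at the same distances there were 2.45 and 1.75 per 100 members. Replicate 1's own members had 104 of 132 copies with the summit on the 5' side (78.8%, 71.0 to 84.9%) and replicate 2's 156 of 209 (74.6%, 68.3 to 80.1%). Introns farther from a TSS gave 189 of 260 (72.7%, 67.0 to 77.8%) and promoters 467 of 779 (59.9%, 56.5 to 63.3%), with the same direction prevailing. Other motifs were uneven too, and the strand on which a motif is written is arbitrary. Over the 13 listed motifs that have a direction, the share ran from 18.2% (the Zelda motif, 2 of 11 copies) to 55.3% (the CACTG core, 312 of 564). The NFAT core had 236 of 542 (43.5%, 39.4 to 47.8%), its longer form 90 of 221 (40.7%, 34.5 to 47.3%) and the DRE core 88 of 214 (41.1%, 34.7 to 47.8%), so that the summit lay more often on the 3' side of these as written.

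The share with this arrangement was higher among stronger members. Among the strongest 143, 63 of 79 copies had the summit on the 5' side (79.7%, 69.6 to 87.1%), at a median of 80.5 bp, and among the next 143 43 of 55 (78.2%, 65.6 to 87.1%), at 57.5 bp. The third set of 143 gave 42 of 61 (68.9%, 56.4 to 79.1%) and the weakest 143 19 of 36 (52.8%, 37.0 to 68.0%). The difference between these sets was not tested. None of the 25 strongest members had the hexamer within 50 bp of the summit, but 13 of 25 had it within 150 bp. In 11 of these 13 the summit lay on the 5' side of the nearest copy, among them the peak of HmgD and HmgZ at 137.5 bp, NFAT at 76.5 bp, norpA at 69.5 bp, Trl at 84.5 bp, Hipk at 91.5 bp and KCNQ at 53.5 bp. CG42327 (121.5 bp) and egh (111.5 bp) had the reverse arrangement. Bases next to the hexamer were also uneven. Over 143 copies at 20 to 125 bp with the summit on the 5' side, the base before the hexamer was C in 84 (58.7%, 50.5 to 66.5%) and the second base after it was C in 74 (51.7%, 43.6 to 59.8%). These were picked as the highest shares among the positions counted. The next was T at 11 bases before the hexamer (50.35%). In the 48 copies with the summit on the 3' side, the shares of C at the same positions were 37.5% and 22.9%.

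Base composition at the summit changed with strength. The strongest 143 members had a median GC content of 35.6% at the summit (33.7 to 37.6%) and 42.6% in the flanks (40.6 to 45.5%). The weakest 143 had 46.5% at the summit (43.6 to 48.5%) and 39.6% in the flanks (38.6 to 42.6%), so the direction of the difference turned. The sets between them had 35.6% and 39.6% at the summit and 39.6% and 40.6% in the flanks. Replicate 1's own members had 33.7% at the summit and 42.6% in the flanks among the strongest 64, and 40.6% and 41.6% among the weakest 63. Those of replicate 2 had 33.7% and 42.6% among the strongest 118, and 43.6% and 39.6% among the weakest 117. Across the 572 members Spearman's rho of signal with GC content at the summit was -0.32, and it was -0.34 in introns farther from a TSS and -0.28 at promoters. The 25 strongest members ran from 24.75% at CG11050, CG9837, MYPT-75D and the peak of chif and Hyls1 to 54.46% at elav. AT-rich sequence makes some motifs more likely and others less, and no motif share was adjusted for it.

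**Figure D5:**
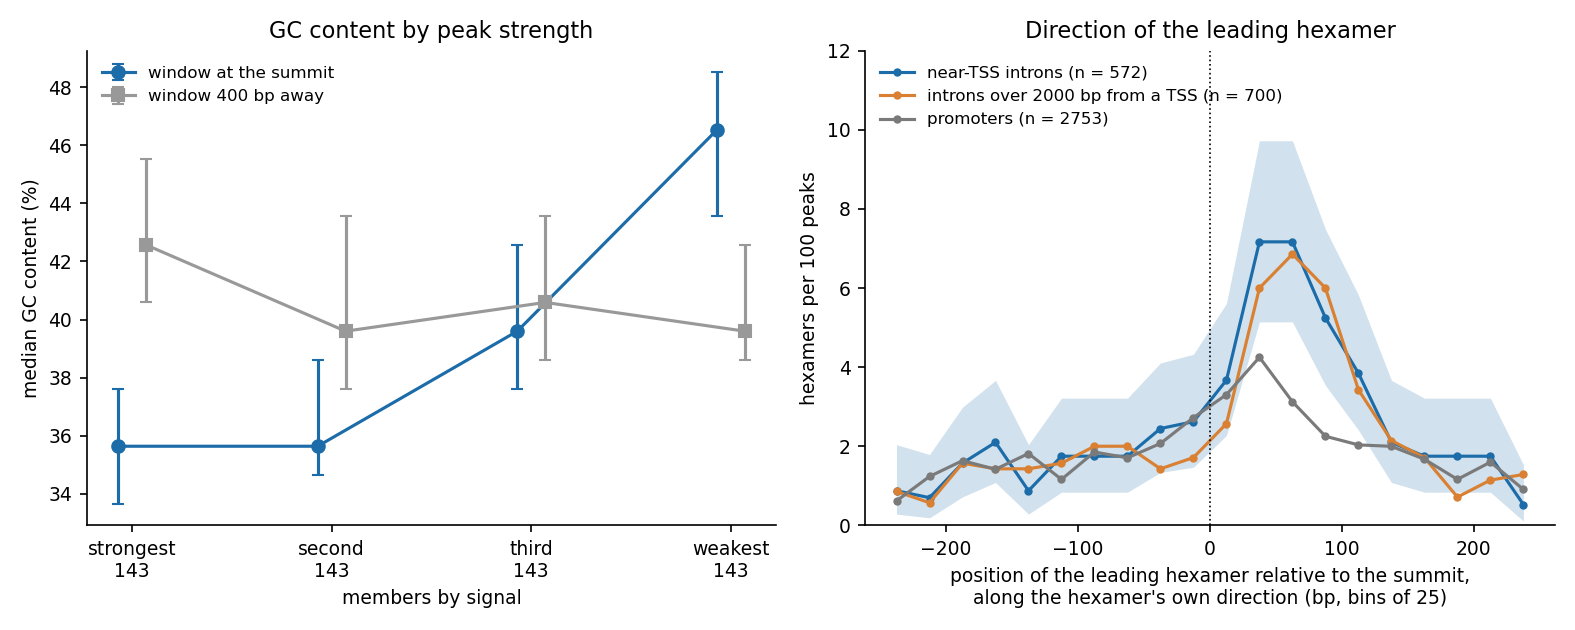
Left, median GC content (%) within 50 bp of the summit and of the same length 400 bp away for the 572 members in 4 sets of 143 by signal, with 95% intervals of the median. Right, copies of the leading hexamer per 100 peaks by position relative to the summit along the hexamer's own direction, positive where the summit lies on its 5' side, with the 95% Poisson interval for the near-TSS introns shaded. The near-TSS line reached 7.17 per 100 peaks between 25 and 75 bp.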

How the data were processed

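ChIP-seq of NFAT-eGFP in 2 replicates of whole embryos was used as 7 deposited peak lists on dm6, per the deposited file descriptions. Chromatin was sonicated to a size range of 200 to 800, per the labels, which give no unit. Aligner and peak caller were not named: not given in the sources used here. Signal values, as deposited by the authors, served only for order and description inside each list. The deposited −log10 of a q-value and the deposited score, the −log10 of a global irreproducible discovery rate, were read and enter no result. The summit came from the deposited offset. The larger list holds 4924 peaks, of which 25 lie outside the chromosome arms and were not used. The conservative list holds 3926 peaks, and the thresholded lists 2263 for replicate 1 and 4000 for replicate 2. The lists give no depth.

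TSSs, genes and exons were those of Ensembl release 115 (BDGP 6.54), transposable elements counted as exons, and sequence was RefSeq Release 6. Overlap meant at least 1 bp. Replicate peaks were matched by the nearest summit among overlapping peaks, so that 1 replicate peak can serve neighbouring members. Shares have 95% Wilson intervals, densities Poisson, paired shares Wald, independent shares Newcombe and medians order-statistic intervals. All cover counting error only, and no test was made, since peaks are not replicates. The members, gene lists, motifs and rules were chosen with earlier results of these data known. The hexamer, its direction and the composition by strength were chosen after seeing values. Named genes hold the 25 strongest members, up to 4 per list, the 5 genes with most members, and the 3 summits on either side of each limit. Some items are not reported here. Sequences follow the strongest members and those with a described motif, widened to 281 bp after seeing values. Of the list symbols, 7 were matched by synonym and all others by name. The steps were checked on planted positions and motifs. Python 3.11.15, NumPy 2.4.6, SciPy 1.17.1 and matplotlib 3.10.9 were used.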

Additional observations from a re-analysis of the deposited data

How the results depend on the processing

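There were 14 results and 114 alternatives, of which 102 were planned and 12 chosen after seeing the data. Only the CACTG difference could have been called reversed, and it stayed positive. The other results were shares, densities or percentiles, which cannot be negative, or differences whose interval reached 0. The member share stayed within its interval under the other alternatives and was 5.78% between 500 and 1000 bp and 5.90% between 1000 and 2000 bp, since each holds part of the range. Density was 46.7 per Mb with the conservative list, 28.4 with the stronger 50% of the list, and between 25.7 and 47.2 with 1 replicate left out, by construction of the shorter lists. It was 73.7 per Mb from 500 to 1000 bp and 47.4 from 1000 to 2000 bp. The share in both replicates was 49.6% for the conservative list, 33.0% when 50% of both peaks had to overlap and 75.2% for the stronger 50%, where the conservative list overlapped 95.7%. The CACTG difference was 16.8 points with the conservative list and 19.1 with windows of 100 bp either side, and the cause was not tested. The share of hexamers with the summit on their 5' side was 78.8% for the stronger 50%, and between 74.6% and 78.8% with 1 replicate left out. The share with a promoter summit at the nearest TSS was 19.2% without replicate 2 and 40.3% without replicate 1, and was lower in the shorter lists. The NFAT core difference ran from -7.12 to -1.28 points. Its interval spans 0 as reported but not with the conservative list (-7.11, -12.8 to -1.47) or for members with no other summit within 1000 bp (-7.12, -13.7 to -0.59). The GAGA difference was -7.77 points (-14.3 to -1.19, an interval below 0) between 500 and 1000 bp and 1.38 (-4.12 to 6.89) between 1000 and 2000 bp, and the DRE core difference was -2.10 (-5.97 to 1.78) with flanks 800 bp away. No paired analysis was possible because there was 1 group. Unknown depth limits what a missing peak means.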

Other observations

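A few members lay near the start of a gene that does not encode a protein. In 10 of 572 (1.75%, Wilson interval 0.952 to 3.19%) the TSS of such a gene was within 500 bp of the summit, against 17 of 700 in introns farther from a TSS (2.43%). Of the 10, 9 were of the ncRNA class and 1 was a snoRNA. The strongest were 172 bp from asRNA:CR44429 inside gce (signal 264) and 178 bp from lncRNA:CR45325 in the region shared by Sesn and CG46429 (219). The snoRNA, Psi18S-525a, was 452 bp from a summit in Arpc2 (67.1). The NFAT gene held 6 further summits that were not members: 4 in its introns farther from a TSS (signals 141, 92.6, 72.3 and 69.8), 1 in an exon (135) and the promoter peak (99.3).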
